A study of Drosophila melanogaster with 2 samples.

Results

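Head-to-head gene pairs share 1 short stretch of DNA between their start sites, and 547 of the 5846 Atf6-eGFP peaks in 0 to 24 h Drosophila melanogaster embryos had their summit in such a stretch (9.36%, 95% Wilson interval 8.64 to 10.1). A gap was defined as the DNA between the start sites of transcription (TSSs) of 2 protein-coding genes that point away from each other, with the minus-strand TSS on the left and at most 1000 bp between them. The outermost annotated start of each gene was its TSS. A summit inside several nested gaps was given to the narrowest. The 13968 protein-coding genes formed 2435 such pairs in 2294 distinct gaps, and 527 gaps held at least 1 listed summit (23.0%, 21.3 to 24.7). Among the listed peaks, position alone chose these 547, and signal was not used to choose between listed peaks.

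Chromatin immunoprecipitation with sequencing was done on whole embryos of the strain Atf6-GFP, which carries a transgene for the Atf6-eGFP fusion, with an antibody against GFP. There were 2 biological replicates of 1 group, so no conditions were compared. The transgene is the limit of this model: the lists show where the fusion protein was precipitated, averaged over all cells and ages of the collection, and antibody alone or embryos without the fusion were not analysed here. The authors' lists of both replicates together gave 105892 ranked regions, of which the 5846 listed peaks passed the authors' threshold on the irreproducible discovery rate (IDR). The number of reads is unknown.

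Atf6 belongs to the basic leucine zipper family of transcription factors and is made as a protein anchored in the membrane of the endoplasmic reticulum (ER). In vertebrates, ER stress leads to its cleavage, and the freed part enters the nucleus and activates chaperone genes. Divergent promoters are common in the compact fly genome, often at housekeeping genes, and the DNA between their start sites is typically kept free of nucleosomes. A factor bound there lies upstream of both genes at once, and binding by itself does not show which gene, if either, it regulates.

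Of the 15 gene pairs with the strongest summits, the first 6 with a gap of at most 300 bp are printed here (BDGP6, the build that dm6 names), from the minus-strand TSS to the plus-strand TSS, with the 21 bases centred on the summit in capitals. They show the DNA under summits in gaps of this width, where listed summits were most often central. Of the 15, the summits of Ugalt, mRpL41, mRpS23, CG32243 and Mnat9 and their partners lay outside the inner section of the gap, from 0.25 to 0.75 of its width.
CG7601 and CIA30, chr3R:29736745-29736965, plus strand: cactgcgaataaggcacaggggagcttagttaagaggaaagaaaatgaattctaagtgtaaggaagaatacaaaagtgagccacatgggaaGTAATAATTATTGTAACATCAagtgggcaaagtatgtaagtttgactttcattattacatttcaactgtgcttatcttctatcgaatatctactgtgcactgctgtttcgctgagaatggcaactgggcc
Art3 and mRpS10, chr3R:15229408-15229665, plus strand: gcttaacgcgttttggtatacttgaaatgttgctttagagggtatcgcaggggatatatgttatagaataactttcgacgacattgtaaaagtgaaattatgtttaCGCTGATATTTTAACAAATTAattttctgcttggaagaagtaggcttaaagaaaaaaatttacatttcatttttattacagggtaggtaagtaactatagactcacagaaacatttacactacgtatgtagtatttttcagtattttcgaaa
CG13390 and CG17294, chr2L:8376797-8377035, plus strand: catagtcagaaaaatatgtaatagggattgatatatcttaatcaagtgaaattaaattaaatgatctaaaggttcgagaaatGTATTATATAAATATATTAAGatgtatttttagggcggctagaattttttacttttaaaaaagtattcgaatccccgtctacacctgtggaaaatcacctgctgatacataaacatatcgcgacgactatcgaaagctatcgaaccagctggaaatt
Tcs5 and CHMP2B, chr3L:5139395-5139619, plus strand: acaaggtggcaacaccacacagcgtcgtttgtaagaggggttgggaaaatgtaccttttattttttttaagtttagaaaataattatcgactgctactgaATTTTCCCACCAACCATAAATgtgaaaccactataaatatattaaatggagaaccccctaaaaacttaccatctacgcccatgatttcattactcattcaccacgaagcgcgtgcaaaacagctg
Mkk4 and SLIRP2, chr3R:8650796-8651084, plus strand: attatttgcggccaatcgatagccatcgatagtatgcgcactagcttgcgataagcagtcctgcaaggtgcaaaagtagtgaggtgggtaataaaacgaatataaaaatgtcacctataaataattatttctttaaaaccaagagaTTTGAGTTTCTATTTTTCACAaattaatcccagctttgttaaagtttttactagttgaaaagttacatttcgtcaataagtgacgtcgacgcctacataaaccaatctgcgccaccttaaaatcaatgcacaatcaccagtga
Atat and Shc, chr3L:9426758-9427010, plus strand: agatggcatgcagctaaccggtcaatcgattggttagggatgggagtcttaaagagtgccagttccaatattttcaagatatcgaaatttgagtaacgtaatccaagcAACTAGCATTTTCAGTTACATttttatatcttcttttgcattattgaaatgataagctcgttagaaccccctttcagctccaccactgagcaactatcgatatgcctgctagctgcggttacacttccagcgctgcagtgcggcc

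The summit between CG7601 and CIA30, a complex I assembly factor gene, lay 101 bp from the left and 119 bp from the right TSS. The summit between Art3, an arginine methyltransferase gene, and mRpS10, which encodes a mitochondrial ribosomal protein, lay 116 bp and 141 bp away. The one between Tcs5, which encodes the kinase of the KEOPS tRNA modification complex, and the ESCRT-III gene CHMP2B was closest to the middle, at 110 bp and 114 bp. The other 3 were 92 bp and 146 bp (CG13390 and CG17294), 156 bp and 132 bp (the JNK pathway kinase gene Mkk4 and the mitochondrial RNA-binding protein gene SLIRP2) and 118 bp and 134 bp (the tubulin acetyltransferase gene Atat and the signalling adaptor gene Shc) from the left and right TSSs. In these 6 gaps G and C made up 30.2% to 43.1% of the bases, against 42.1% of the genome.

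The strongest of all summits between divergent genes lay between Ugalt, which encodes a Golgi transporter of UDP-galactose, and eIF2Bbeta, a subunit of the nucleotide exchange factor of translation initiation. Its signal, the authors' peak score of unstated scale, was 2416 in the list of both replicates, at rank 2 of all 5846 peaks. It was 1287 in replicate 1's own ranked list and 1146 in that of replicate 2, and its rank was 3 in each. This summit was not central: it lay 31 bp from the Ugalt TSS and 688 bp from that of eIF2Bbeta. The mitochondrial ribosomal protein genes mRpL41, paired with CG8079 (signal 1687, 1008 and 684 in the lists of both, replicate 1 and replicate 2), and mRpS23, paired with the Arf GTPase regulator gene CenG1A (1449, 823 and 622), had the summits at rank 4 and rank 12 of the list. All 15 strongest were in both replicates' own thresholded lists.

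**Figure D1:**
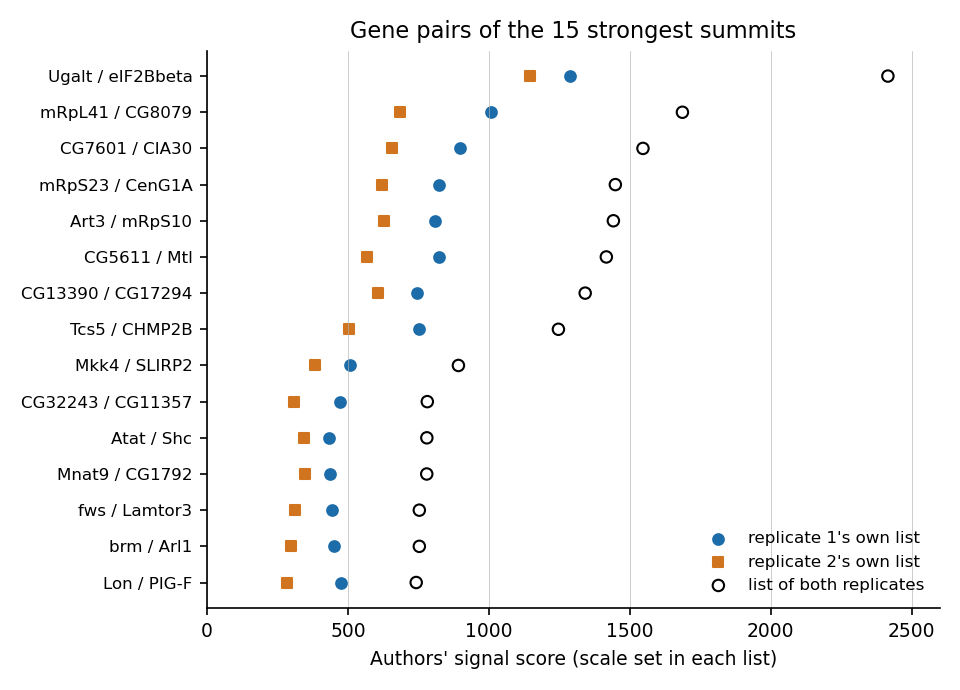
Authors' signal score (x axis) of the 15 strongest summits between divergent genes, each row 1 gene pair, in the list of both replicates (open circles, 742 to 2416) and in the ranked lists of replicate 1 (blue circles) and replicate 2 (orange squares). Scores are comparable only within 1 list; in all 3 lists the pair of Ugalt and eIF2Bbeta is highest of the 15.

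Further pairs among these 15 were CG5611 and Mtl (signal 1417), CG32243 and CG11357 (782), Mnat9 and CG1792 (780), fws, which encodes a subunit of the Golgi tethering complex COG, and the Ragulator gene Lamtor3 (754), the chromatin remodelling ATPase gene brm and the Golgi GTPase gene Arl1 (753), and the mitochondrial protease gene Lon and PIG-F, which acts in GPI anchor synthesis (742). Across all 547, signal had a lower quartile of 90.5, a median of 131 and an upper quartile of 216, with extremes of 2.33 and 2416. The lowest were at CG12159 and the ubiquitin ligase scaffold gene Cul1 (2.33), at rumi and CG7029/Usp12-46 (3.70) and at CG31548 and CG12170 (3.76). Each of these 3 was the weaker of 2 listed summits in its gap, 199 to 202 bp from one with a signal of 58.95, 248.8 and 89.5 respectively. The strongest ranked summits in gaps that were not listed were those at eIF4EHP, a cap-binding protein gene, and CG18428 (1107), at Sirt6 and pont (405) and at CG4297 and MED15 (363). These 3 met the IDR limit of 0.01 but were absent from the thresholded list, as were 14 ranked gap summits in all; the authors' reason is not given in the sources used here.

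Ranked summits between divergent genes reached the thresholded list more often than those upstream of a TSS outside the gaps. Of 1403 ranked summits in gaps, 547 were listed (39.0%, 36.5 to 41.6), against 993 of 5728 that lay 1 to 500 bp upstream of a TSS and in no gap, called one-sided promoters here (17.3%, 16.4 to 18.3). Summits of this second set could also lie inside another gene, or nearer to a TSS that they were not upstream of. Such cases were not removed from any comparison with one-sided promoters. The odds ratio was 3.05 (95% interval 2.68 to 3.47, two-sided Fisher exact test, adjusted p = 1.79e-62 over 5 tests of location). Of all ranked regions, 5.52% were listed. In the lists of 1 replicate each the odds ratio was 3.01 without replicate 2 and 2.39 without replicate 1. Tests over summits treat each as a separate unit; summits in 1 gap share sequence, and with 2 replicates behind the lists none of these tests measures the spread between embryos.

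The difference varied with the distance to the start site. A gap summit is close to a TSS by its nature, with a median of 97 bp to the nearer one, whereas listed summits at one-sided promoters had a median of 167 bp. At equal distances the shares differed most between 101 and 150 bp, where 181 of 339 ranked gap summits were listed (53.4%, 48.1 to 58.6) against 180 of 627 (28.7%, 25.3 to 32.4). Between 51 and 100 bp the shares were 45.1% and 22.9%, and within 50 bp 28.8% and 17.6%. From 201 to 300 bp they were alike in value, at 18.3% (12.3 to 26.3) of 115 gap summits and 18.5% (16.3 to 20.9) of 1070. Beyond 300 and up to 500 bp the gap share was again the higher one, at 10 of 50 (20%, 11.2 to 33.04) against 195 of 2112 (9.23%, 8.07 to 10.5). The bins were not tested one by one.

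**Figure D2:**
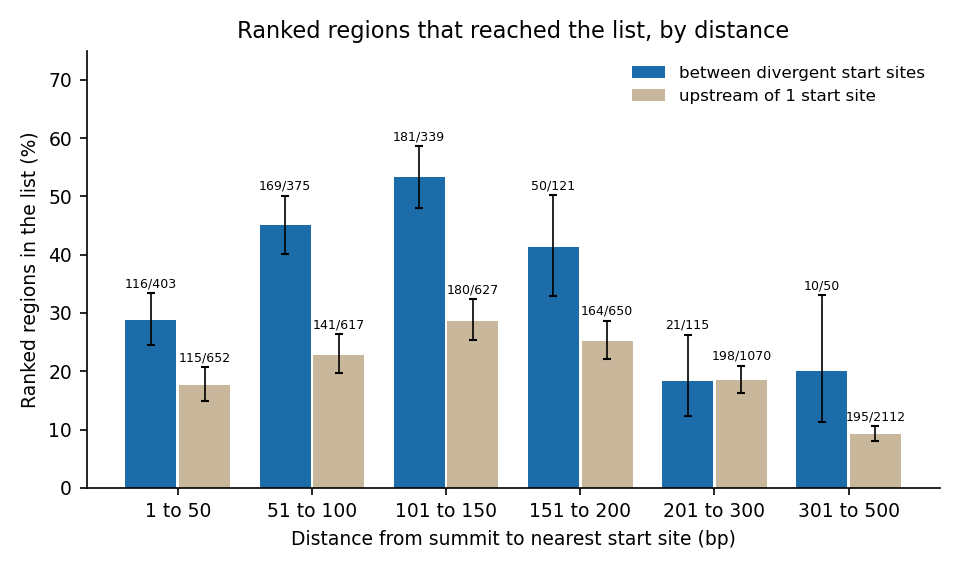
Share of ranked regions in the thresholded list (y axis, percent, with 95% Wilson intervals) by distance of the summit from the nearest start site it lies upstream of (x axis, bp), for summits between divergent start sites (blue) and upstream of 1 start site (tan). Counts stand above the bars; blue bars are taller up to 200 bp and again in the last bin (20% against 9.23%), and the bars for 201 to 300 bp are level at 18.3% and 18.5%.

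The share of gaps that carried a listed summit varied with their width. In gaps of 1 to 150 bp, 33 of 525 held a listed summit (6.29%, 4.51 to 8.70). In gaps of over 150 to 300 bp, 206 of 602 did (34.2%, 30.5 to 38.1). The share was 29.8% of 574 gaps of over 300 to 500 bp and 19.7% of 593 gaps of over 500 to 1000 bp. In bins of 50 bp the highest shares were 39.1% of 207 gaps at 201 to 250 bp and 38.9% of 262 gaps at 251 to 300 bp. Wider gaps offer more positions for a summit, and these shares are per gap, not per base. Of the 525 gaps of 1 to 150 bp, 104 held a ranked summit. By width, the listed share of ranked summits was 31.7% of 104, 58.5% of 352, 41.5% of 431 and 25% of 516. By this share the widest class was the lowest, not the narrowest.

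Each replicate's own list held the same order of shares per gap, at lower values. In replicate 1 the shares were 4%, 29.7%, 27.0% and 16.2% from the narrowest to the widest class. In replicate 2 they were 3.81%, 22.4%, 16.9% and 11.8%. At the limit of the definition the share did not drop: 6 of 40 gaps of 951 to 1000 bp (15%) and 7 of 38 gaps of 1001 to 1050 bp, just outside it (18.4%), held a listed summit.

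**Figure D3:**
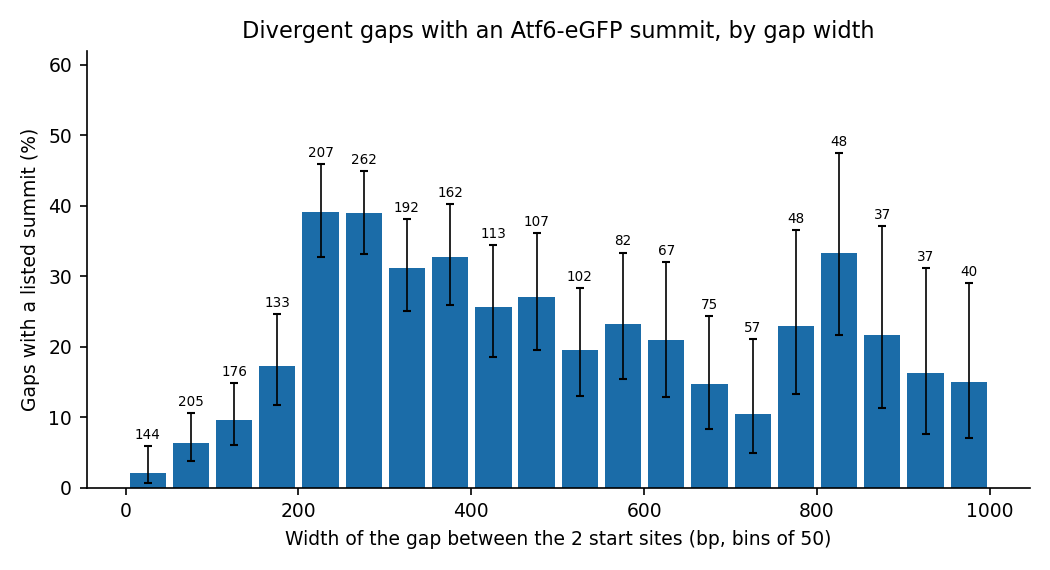
Share of divergent gaps that hold a listed summit (y axis, percent, with 95% Wilson intervals) by gap width in bins of 50 bp (x axis), with the number of gaps above each bar. Shares rise from 2.08% in the narrowest bin to 39.1% at 201 to 250 bp. Beyond 500 bp they are lower than that and uneven, with wide intervals, and reach 33.3% of 48 gaps at 801 to 850 bp.

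The narrowest gap with a summit, 38 bp, lay between CG4291 and kraken (signal 100.1), and the widest, 984 bp, between the RNA surveillance gene Smg5 and Ance, which encodes an angiotensin-converting enzyme homologue (140.5). Both peaks were in replicate 1's own list and the first was not in that of replicate 2. The deposited peaks were 100 to 396 bp wide, and 435 of the 547 had the full 396 bp. In gaps of over 150 to 300 bp the peak reached over both start sites in 142 of 206 cases (68.9%), and over all gaps in 195 of 547 (35.6%).

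Within gaps, listed summits lay nearer the middle than unlisted ones. Of the 547, 316 lay in the inner section, from 0.25 to 0.75 of the gap's width (57.8%, 53.6 to 61.8), against 354 of the 856 ranked gap summits that were not listed (41.4%, 38.1 to 44.7). The odds ratio was 1.94 (1.55 to 2.43, two-sided Fisher exact test, adjusted p = 5.41e-09). By width, the shares of listed and unlisted summits were 39.4% and 39.4% in gaps of 1 to 150 bp, 76.7% and 54.1% at 150 to 300 bp, and 58.1% and 42.1% at 300 to 500 bp. In gaps of over 500 to 1000 bp the order of the values was opposite, at 31.8% and 36.4%; the classes were not tested one by one.

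Seen from the start site, the median distances of listed summits in the 3 wider classes differed less than the gap widths did. The distance to the nearer TSS cannot exceed that to the middle of the gap, so it is capped in narrow gaps. The part of this cap in the medians was not tested. The median distance to the nearer TSS was 91.5 bp in gaps of over 150 to 300 bp (quartiles 63 and 110), 112 bp at 300 to 500 bp (71 and 144.5) and 125 bp at 500 to 1000 bp (67 and 179). In gaps of 1 to 150 bp it was 19 bp. Unlisted ranked summits had medians of 65, 86.5 and 130 bp in the 3 wider classes. No preference for a strand passed the test: 277 of 546 summits were nearer to the plus-strand gene (50.7%, 46.6 to 54.9, two-sided exact binomial p = 0.765, adjusted p = 0.956).

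**Figure D4:**
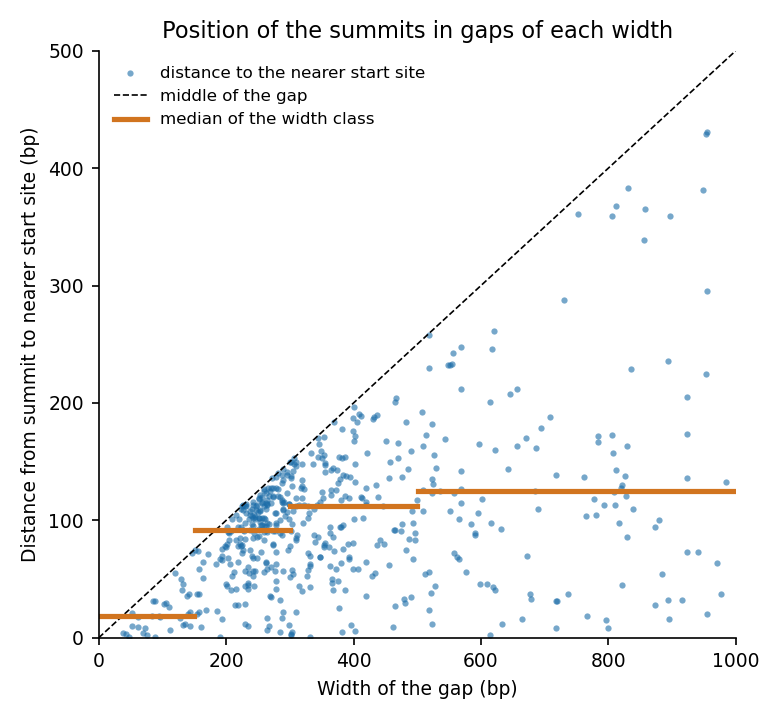
Distance from each of the 547 summits to the nearer start site (y axis, bp) against the width of its gap (x axis, bp). Orange bars mark the median of each width class, 19, 91.5, 112 and 125 bp, and the dashed line is the middle of the gap: points lie along it between 200 and 300 bp and fall away below it in wider gaps.

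In 20 gaps there were 2 listed summits, and in 0 gaps more. These gaps were 304 to 955 bp wide, the summits were 199 to 751 bp apart (median 212), and in 16 of the 20 each summit was nearer to its own gene. That placement is forced where the spacing exceeds the distance from a TSS to the middle of the gap. The gap of 304 bp, with 202 bp between its summits, is an example. The count of 16 is thus partly set by the spacing and was not tested. How near 2 summits can be called is not known, since the peak caller is not given. Its part in the spacing was not tested. The highest summed signal was at Ac78C, an adenylyl cyclase gene, and chb, which encodes the microtubule-binding protein CLASP. There summits of 293 and 384 lay 136 bp from the first and 205 bp from the second TSS. Between Snx21 and the gamma-secretase gene aph-1 they had signals of 281 and 282, 214 bp apart. Between l(1)G0320 and the ribosomal protein gene RpS28b, signals of 284 and 190 lay 751 bp apart, 94 bp and 28 bp from the start sites.

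Listed summits in gaps lay on DNA poor in G and C. Within 50 bp of the summit (101 bp) mean G and C was 32.2% ± 9.80 (SD over 547 summits), against 37.8% ± 10.1 at the 856 unlisted gap summits and 37.0% ± 11.4 at the 993 listed summits of one-sided promoters. One-sided promoters had the same order, with 44.2% ± 10.6 at their 4735 unlisted summits, so the lower value of listed summits was not particular to gaps. The lower value of gaps was likewise present among unlisted summits. A window counted as low when its G and C was below 34.65%, the median of all ranked gap summits. By this limit, chosen with the values known, 350 of 547 were low (64.0%, 59.9 to 67.9). Of unlisted gap summits 37.6% were (odds ratio 2.94, 2.34 to 3.71, two-sided Fisher exact p = 4.85e-22). Of listed summits at one-sided promoters 46.0% were (odds ratio 2.08, 1.67 to 2.60, two-sided Fisher exact p = 1.59e-11). In the lists of 1 replicate each, these odds ratios were 3.17 and 1.73 without replicate 2 and 3.21 and 1.91 without replicate 1.

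The difference in G and C was larger in the summit windows than over the whole gaps. In gaps of over 150 to 300 bp the windows of listed summits had 29.1% G and C and those of unlisted ones 35.8%, whereas the whole gaps had 34.2% ± 5.06 with a listed summit (n = 206) and 35.9% ± 6.82 without (n = 396). In gaps of over 300 to 500 bp the windows had 31.9% and 35.5% and the whole gaps 33.4% and 33.5%. Windows and whole gaps are unlike sets, since gaps without a listed summit include those with no ranked summit. Of the 602 gaps of over 150 to 300 bp, 345 held a ranked one. Listed summits were also more often central in both classes, as given above. In gaps of over 150 to 300 bp, a listed summit was present in 37.3% of 332 gaps under 35% G and C, in 44.5% of 128 gaps from 35 to 40%, in 20.4% of 93 gaps from 40 to 45% and in 12.2% of 49 gaps above. Base composition can affect how DNA is amplified and sequenced, and its part in the peak calls was not tested.

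**Figure D5:**
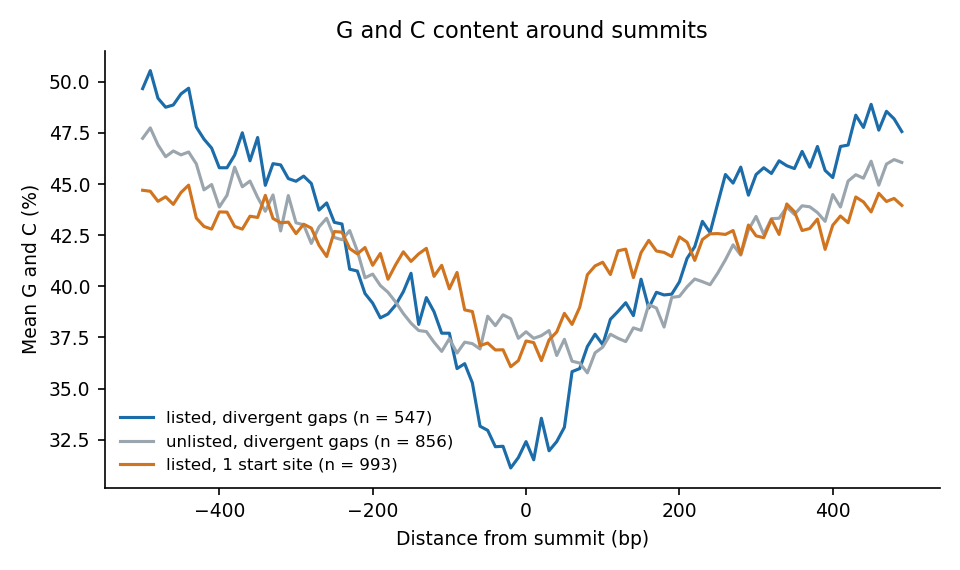
Mean share of G and C (y axis, percent; the axis does not start at 0) in steps of 10 bp around the summit (x axis, bp), for listed gap summits (blue), unlisted ranked gap summits (grey) and listed summits at one-sided promoters (orange). The blue curve is lowest at the summit, at 31.9% on average in the middle, and highest at the far ends, at 48.2%.

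Binding motifs gave 1 call against each comparison set. In all, 15 short words were searched on either strand within 50 bp of the summit. Against unlisted gap summits, 0 of 15 were more frequent (0%) and 1 was less frequent (6.67%) after adjustment over the 15 (two-sided Fisher exact tests); at an unadjusted p under 0.05 there were 2 and 2. The less frequent one was CGATA, part of the sites of the boundary factor BEAF-32 and of the promoter factor Dref. It lay at 130 of 547 listed and 267 of 856 unlisted summits (23.8% and 31.2%, odds ratio 0.688, 0.534 to 0.884, adjusted exact p = 0.0432). It no longer passed in 3 of 9 alternatives: with the peaks of replicate 1 alone (odds ratio 0.727, exact p adjusted to 0.0832), within 100 bp (0.937, 0.672) and within 25 bp of the summit (0.724, 0.195). Of all ranked regions 11.6% held CGATA, so both kinds of gap summit had it more often than that. Windows of the 3 strongest listed summits with CGATA follow, with the word, or its reverse complement TATCG, in capitals.
Tcs5 and CHMP2B, chr3L:5139455-5139555, plus strand: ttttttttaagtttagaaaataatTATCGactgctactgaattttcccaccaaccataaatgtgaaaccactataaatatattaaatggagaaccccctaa
Atat and Shc, chr3L:9426826-9426926, plus strand: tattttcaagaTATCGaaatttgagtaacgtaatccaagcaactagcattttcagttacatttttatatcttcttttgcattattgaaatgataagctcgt
Reps and l(2)gd1, chr2L:11106792-11106892, plus strand: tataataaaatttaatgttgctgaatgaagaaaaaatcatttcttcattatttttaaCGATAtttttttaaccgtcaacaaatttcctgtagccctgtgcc

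Against listed summits at one-sided promoters, 0 of 15 words were more frequent (0%) and 1 was less frequent (6.67%); at an unadjusted p under 0.05 there were 1 and 2. The call was GAGAG, the repeat bound by GAGA factor, at 36 of 547 summits against 120 of 993 (6.58% and 12.1%, odds ratio 0.513, 0.338 to 0.763, two-sided Fisher exact test, adjusted p = 0.00820). It no longer passed in 5 of 9 alternatives, including the peaks of replicate 1 alone (odds ratio 0.795, exact p adjusted to 0.677) and of replicate 2 alone (0.613, 0.144). Of all ranked regions 12.8% held it. The 3 strongest listed gap summits with the word, or its reverse complement CTCTC, in capitals were as follows.
alphaCOP and CG13919, chr3L:1645296-1645396, plus strand: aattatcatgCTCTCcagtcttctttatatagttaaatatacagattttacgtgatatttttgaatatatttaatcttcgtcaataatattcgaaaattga
Myo95E and TBC1d7, chr3R:24161593-24161693, plus strand: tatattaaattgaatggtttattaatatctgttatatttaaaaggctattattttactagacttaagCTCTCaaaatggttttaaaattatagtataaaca
CG32022 and CG6511, chr3L:8721232-8721332, plus strand: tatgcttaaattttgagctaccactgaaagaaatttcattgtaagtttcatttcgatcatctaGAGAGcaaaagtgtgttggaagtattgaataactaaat

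The other words passed against neither set with this list and window. The TATA box word TATAAAA lay at 12.8% of listed gap summits, 8.53% of unlisted ones (adjusted p = 0.0844) and 8.46% at one-sided promoters (adjusted p = 0.0577, two-sided Fisher exact tests), and at 3.09% of all ranked regions. The full Dref site TATCGATA lay at 26 of 547 (4.75%), against 6.66% and 2.92%, and at 0.343% of all ranked regions. The core of the vertebrate ATF6 site, TGACGTGG, was present at 0 of 547, a count that allows up to 0.548%. It lay at 0.234% of unlisted gap summits and at 0.154% of all ranked regions. Both shares are below that limit, so the count of 0 does not show a lower share. The short leucine zipper core ACGT lay at 14.4% against 17.9% of unlisted gap summits (adjusted exact p = 0.262) and at 18.2% of all ranked regions. The windows compared differ in G and C as given above, and the part of this in the word shares was not tested.

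As for strength, 361 of the 547 peaks had a signal above the median of the whole list, 101.8 (66.0%, 61.9 to 69.8), against 592 of 993 at one-sided promoters (59.6%, odds ratio 1.31, 1.05 to 1.65, two-sided Fisher exact test, adjusted p = 0.0229). The 2 replicates' own thresholded lists both held 297 of the 547 (54.3%), against 54.2% at one-sided promoters (odds ratio 1.01, 0.810 to 1.25, two-sided Fisher exact p = 1). Of the others, 142 were in that of replicate 1 alone, 41 in that of replicate 2 alone and 67 in neither. Where a listed summit was also in a replicate's list, the replicate's summit lay a median of 15 bp (replicate 1) or 14 bp (replicate 2) away.

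Divergent pairs held 6 of 19 genes listed as stress sensors and transcription factors, 8 of 19 listed as ER chaperones, 7 of 14 for ER-associated degradation and 14 of 22 for ER entry and N-glycosylation, and 4648 of all 13968 protein-coding genes. Of these 4648, 1092 were at a gap with a listed summit (23.5%), which is the share to read the following counts against; membership in several pairs and small numbers limit them, and they were not tested. Of 6 paired stress sensor and transcription factor genes, 3 were at such a gap. Irbp18, a basic leucine zipper gene paired with the NEDD8-activating enzyme gene APP-BP1, had a signal of 279 (170 in replicate 1, 102 in replicate 2). Ire1, the ER stress sensor gene, paired with the mitochondrial rRNA methyltransferase gene Mrm2, had 129.5 (65.4 and 71.1), with the summit 190 bp from Ire1 and 129 bp from Mrm2. Gcn2, a kinase gene of the amino acid response, paired with Ugt35D1, had 73.9 (47.7 and 30) and was not in replicate 2's own list. The gaps of crc, the fly Atf4 gene, and of S1P and S2P, the proteases that free vertebrate ATF6, held no listed summit.

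Of 8 paired genes listed as ER chaperones, 2 were at such a gap: Gp93, the ER Hsp90, paired with the mitochondrial iron carrier gene mfrn (124, summit 110 bp from Gp93), and DnaJ-1, paired with Usp47 (27.4). DnaJ-1 is known as a cytosolic rather than an ER chaperone, and Trap1, another of the 8, as a mitochondrial one. Of 7 genes for ER-associated degradation, Faf2, paired with the gamma-tubulin ring gene Grip71 (267), and the mannosidase-like gene Edem2, paired with CG16974 (142.5), were at such a gap. Of 14 genes for entry into the ER and N-glycosylation, 5 were. They were the translocon gene Sec61alpha, paired with Daxx (188), the signal recognition particle genes Srp14, paired with the elongin gene EloB (174), Srp19, paired with qm (128), and Srp72, paired with Septin2 (97.6), and the oligosaccharyl transferase gene Stt3B, paired with CG11839 (123.5). The Irbp18, Ire1, Sec61alpha, Srp19 and Faf2 peaks were in both replicates' own lists. Among these genes, the summit was nearer the partner's TSS at Irbp18, Ire1, Gcn2, Srp14 and Srp19.

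Among housekeeping lists, cytosolic ribosomal protein genes were at a gap with a listed summit in 20 of 51 cases (39.2%, 27.0 to 52.9), led by RpL32, paired with CG7943 (506), and RpL34b, paired with CG8132 (383). Mitochondrial ribosomal protein genes were in 19 of 56 (33.9%, 22.9 to 47.0), led by mRpL41 and mRpS23, and autophagy genes in 7 of 16 (43.8%, 23.1 to 66.8), led by Atg2, paired with CG12093 (377), and the conjugation enzyme gene Atg7, paired with the exocyst gene Sec6 (262). Aminoacyl-tRNA synthetase genes were in 5 of 16, led by GluProRS, paired with AP-1sigma (407), and IleRS, paired with Hem (307). Lists near or below 23.5% included the respiratory chain, with 9 of 37 (ND-42 with Cchl, 192, and ND-51 with CG13994, 171), and the proteasome, with 2 of 19 (Prosbeta2 with mRpL39, 107, and Rpn13 with CtsL1, 87.6). DNA replication genes were in 3 of 19, which were PolE4, paired with qkr58E-3 (122.8), and Mcm2 and RPA1, which form a pair with each other (102).

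RNA polymerase and general transcription factor genes were in 9 of 34 (26.5%, 14.6 to 43.1), led by Taf5, paired with the peroxisome gene Pex6 (410), and the polymerase II subunit gene Polr2B, paired with 140up (306). Mediator genes were in 5 of 18 (27.8%, 12.5 to 50.9), led by MED30, paired with the DNA polymerase gene Rev1 (314), and MED27, paired with elm (246). Translation initiation factor genes were in 5 of 20 (25%, 11.2 to 46.9), led by eIF2Bbeta and by eIF3c, paired with CCHa1-R (172). Odorant and gustatory receptor genes, which serve sensory neurons, were in 1 of 14, Gr32a, whose partner Idua encodes a lysosomal enzyme (162). The 1 paired embryonic patterning gene, twi, was at a gap with no listed summit.

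The share of gaps with a listed summit was 28.7% on 3L (24.7 to 33.03) and 27.0% on 3R (23.5 to 30.8), 21.9% on 2L (18.3 to 25.9) and 19.96% on 2R (16.6 to 23.9). It was 14.9% on X (11.6 to 19.0), and 0 of 8 gaps on chromosome 4 held one (0 to 32.4%).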

How the data were processed

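Per the labels, whole embryos of 1 group were immunoprecipitated in 2 biological replicates, and chromatin was sonicated to a labelled size range of 200 to 800, with no unit. The authors deposited thresholded and ranked IDR peak lists on dm6, per replicate and for both replicates together. Each peak has a deposited signal score of unstated scale, used only within 1 list, and ranked regions have the authors' −log10 of the IDR. The aligner is not given in the sources used here, nor is the peak caller. The control library was not used here. Read depth is unknown. Intervals cover counting error only.

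TSSs came from Ensembl release 115 (BDGP6 version 54) and sequence from the RefSeq copy of the assembly. On every arm the last ranked region ended within the arm. The narrowest gap took a summit. Shares were compared by two-sided Fisher exact tests with Benjamini-Hochberg adjustment over 5 location tests and over 15 words per comparison, threshold 0.05. Wilson intervals are 95%. A share from a count of 0 has a limit of 3 counts. Steps were tested on simulated data. The gaps, gene lists, words and rules were chosen with earlier results of these data known. Named gene pairs are the 15 of highest signal, those of the ER and stress lists, the 2 highest of each other list and the narrowest and widest gaps. Also named are the 3 listed gap summits of lowest signal, the 3 unlisted ones of highest signal and the 3 strongest gaps with 2 summits. The tests of low G and C were added after the values were seen. Alternatives were another list, higher signal, 500 bp gaps, every transcript start, 1 summit per gap and other windows or overlaps. Software was SciPy 1.17.1, pandas 2.3.3, numpy 2.4.6 and matplotlib 3.10.9 under Python 3.11.15.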

Additional observations from a re-analysis of the deposited data

How the results depend on the processing

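The higher share of ranked regions that reached the list, the central position, the strand test and both low G and C tests kept their direction and their side of the threshold in each of their 7 or 8 alternatives. Odds ratios ranged from 2.39 to 4.07 for reaching the list and from 1.74 to 2.56 for central position. The share of gaps with a listed summit was 21.3% by the conservative list, 29.3% with every transcript start, 15.6% with the peaks above the list's median signal, and 14.0% to 19.7% in the lists of 1 replicate each. The odds ratio of presence in both replicates, 1.01, was 0.972 with the conservative list and 0.842 with the peaks above the median signal. That of signal above the median, 1.31, was 0.999 with the latter peaks, the limit then being their own median, so the difference was not seen among them. It kept its direction and its side of the threshold in 6 of its 7 alternatives. Against unlisted gap summits the number of called words, 1, became 5 with every transcript start, 3 with gaps up to 500 bp, 4 above the median signal, 0 within 25 bp, and 0 to 4 in the lists of 1 replicate. Against one-sided promoters the 1 call became 2 with 1 summit per gap, 3 with every transcript start, 5 within 100 bp, and 0 with the conservative list, above the median signal, within 25 bp and in either replicate's list. TATAAAA was called against unlisted gap summits with every transcript start, above the median signal, within 100 bp and in replicate 2's list. Within 100 bp it was the only call there, and it was more frequent. It was called against one-sided promoters with 1 summit per gap and within 100 bp. With every transcript start CGATA and TATCGATA were more frequent than at one-sided promoters. Both were also among the 5 words called against one-sided promoters within 100 bp, of which 2 were less frequent, GAGAG among them. The causes of these changes were not tested. Word calls therefore rest on the list and window chosen. No paired analysis was possible because there was 1 group. Without read counts, no limit of detection can be given for the gaps without a listed summit.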

Other observations

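Searched over the whole gap instead of the summit window, the cyclic AMP response element TGACGTCA, a site of several basic leucine zipper factors, lay in 9 of 527 gaps with a listed summit (1.71%) and in 5 of 1767 without one (0.283%). This was chosen with the values known and was not tested. Gap width moves with it: in gaps of over 500 to 1000 bp the counts were 5 of 117 and 3 of 476, in gaps of over 300 to 500 bp 2 of 171 and 2 of 403, in gaps of over 150 to 300 bp 2 of 206 and 0 of 396, and in narrower gaps 0 and 0. The 9 gaps were those of Reps and l(2)gd1 (signal 730.5), the furin protease gene Fur1 and Vps33B (488.5), AP-2alpha and ebi (225), Rrp1 and gammaTub23C (189), Idua and Gr32a (162), Glyat and Tg (124.5), CG7656 and RhoGAP71E (118.5), CG14440 and CG14441 (97.0), and CG44433 and CG42855 (61.1). The element lay 4 bp from the summit at Fur1 and Vps33B and 57 to 479 bp from it in the other 8. Within 50 bp of the summit it lay at 1 of 547 listed and 1 of 856 unlisted gap summits. It lay at 1 of 993 listed summits of one-sided promoters and at 0.152% of all ranked regions. The whole-gap difference was thus not seen at the summits. Over whole gaps the short leucine zipper core also had a higher share with a listed summit (50.9% against 43.8%), and some other words had a lower one. The ATF6 core TGACGTGG lay in 1 of the 527 gaps and in 5 of the 1767.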
